A study of Mus musculus with 2 samples.

Results

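Claudins and their tight junction partners are the 10 genes described here: Cldn2, Cldn3, Cldn4, Cldn7, Cldn15, Cldn23, Ocln, F11r, Tjp1 and Tjp3. They were chosen by name, and all 10 were among the 27998 genes counted. They were read by droplet-based single cell RNA sequencing in jejunal crypts of 2 male mice that were 12 months old and lacked miR-375 in the whole body (375KO), on a background labelled C57BL6/2J. The deletion was present in every cell analysed, the methods describe a line made by CRISPR/Cas9 editing of embryos and crossed back to B6 albino mice, and no wild type library was used here, so the differences below are between cell types of 375KO mice, and the effect of losing miR-375 was not measured. Each mouse gave 1 library, and mouse and library cannot be told apart. In the deposited annotation 3275 cells, 2082 of mouse 1 and 1193 of mouse 2, fell into 10 types: stem cells, transit-amplifying cells (TA), enterocytes, secretory progenitors, goblet progenitors, goblet cells, Paneth cells, enteroendocrine cells (EEC), tuft cells and intraepithelial lymphocytes (IEL).

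Tight junctions seal the space between neighbouring epithelial cells near their apical side and set which ions and how much water pass between the cells. Claudins are the membrane proteins that form the strands: some build pores, others close the gap. Occludin and junctional adhesion molecules sit in or beside the strands, and the zonula occludens proteins tie them to actin inside the cell. In the small intestine the set of claudins differs between the crypt, where cells divide, and the villus, where they absorb.

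The cells held 44017234 unique molecular identifiers (UMIs, 1 per captured transcript) in mouse 1 and 22163354 in mouse 2, with medians of 16475 and 15232 per cell, and no barcode was shared between the libraries. The sums over 1 type in 1 mouse ran from 215413 UMIs in the 20 EEC of mouse 2 to 19366535 in the 931 enterocytes of mouse 1. Levels are given as UMIs of a gene per 1000000 UMIs of such a sum (CPM), and fold changes come from a fit on the sums of the 9 epithelial types that rescales each sum (TMM). Defining markers were highest in their own type in both mice for 5 of 5 genes in EEC, enterocytes, goblet, Paneth and tuft cells, 6 of 6 in IEL and 4 of 5 in stem cells and TA, but for 3 of 4 in secretory progenitors and 0 of 4 in goblet progenitors, whose markers peaked in goblet cells. The IEL of mouse 2 also carried B and plasma cell markers, at 4773 CPM against 3.81 in mouse 1. Those of mouse 1 carried Paneth markers at 3024 CPM against 13.3 in mouse 2. They also carried goblet markers at 842 CPM against 4.44, and enterocyte markers at 621 CPM against 0. The part of any of these in the members' values was not tested.

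The members lie on 8 chromosomes of the mm10 assembly (GRCm38). Cldn3 and Cldn4 are neighbours on chromosome 5, at chr5:134986214-134987472 on the plus strand and chr5:134945119-134946934 on the minus strand, and Cldn15 lies on the same chromosome at chr5:136966616-136975858. Cldn2 is on the X chromosome at chrX:139800828-139811386. The 3′ end of Cldn3 overlaps the antisense gene Wbscr25 and that of Tjp3 overlaps Apba3 on the other strand. Tjp1 overlaps 3 small annotated genes, of which 2 are on its own strand. How reads in shared bases were assigned was not examined.

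The promoter windows of Cldn2 and Cldn4 are shown because the levels of these genes on the CPM scale, highest in stem cells and in EEC, are described in most detail below. Each runs from 250 bases before the start of transcription to 50 after it, in the direction of the gene, from RefSeq (GRCm38.p6), at chrX:139800558-139800857 on the plus strand and chr5:134946885-134947184 on the minus strand. Capitals mark TATAAA in Cldn2 and the GC box GGGCGG, read on the other strand as CCGCCC, in Cldn4.
Cldn2: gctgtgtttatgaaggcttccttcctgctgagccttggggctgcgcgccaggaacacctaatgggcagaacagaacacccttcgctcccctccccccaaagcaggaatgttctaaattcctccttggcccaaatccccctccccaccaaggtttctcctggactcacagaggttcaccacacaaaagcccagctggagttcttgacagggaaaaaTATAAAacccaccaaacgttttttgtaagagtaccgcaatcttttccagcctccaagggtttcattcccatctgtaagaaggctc
Cldn4: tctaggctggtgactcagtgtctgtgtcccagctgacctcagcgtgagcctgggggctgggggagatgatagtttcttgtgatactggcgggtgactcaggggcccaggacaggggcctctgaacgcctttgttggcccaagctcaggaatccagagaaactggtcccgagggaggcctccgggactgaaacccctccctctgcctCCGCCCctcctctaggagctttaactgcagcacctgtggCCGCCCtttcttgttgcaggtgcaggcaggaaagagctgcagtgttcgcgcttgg
TATAAA began 35 bases before the start of Cldn2 and was found in 1 of 12 windows of 9 members, against 13.62% of the 32851 promoters searched on both strands. The GC box stood in 8 of the 12 windows, those of Cldn3, Cldn4, Cldn7, Cldn15, Tjp1, Ocln and F11r, against 35.66% of all promoters. AGATAA, the letters bound by GATA factors, stood in 1 Tjp3 window and in 11.18% of all. CTTTGAT of the TCF/LEF factors, CCATAAA of CDX factors, CAAAGTCCA of HNF4 and AACNNGTT of GRHL factors were in 0 of the 12 windows, and in 3.729%, 2.749%, 0.4749% and 4.204% of all promoters. These are matches of letters in a short window, and no factor was measured.

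**Figure D1:**
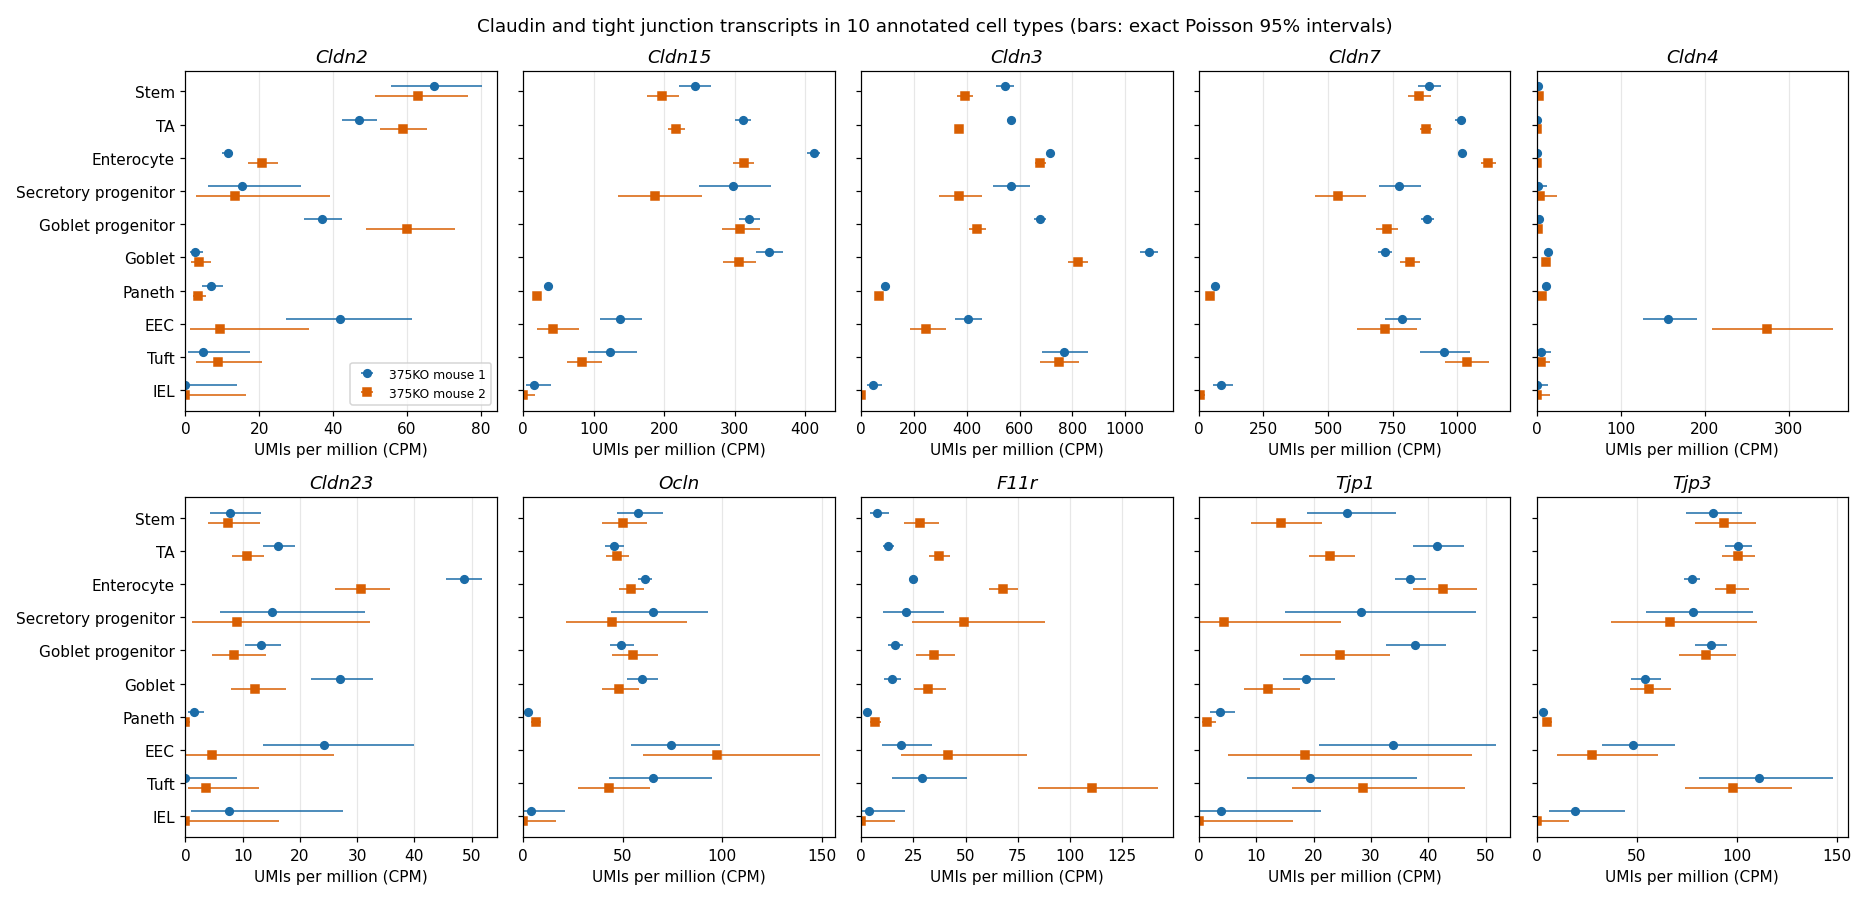
Levels of the 10 members (CPM, horizontal axis, own scale per gene) in the 10 annotated types, with circles for mouse 1 and squares for mouse 2 and bars for exact Poisson 95% intervals of the counts. Cldn2 is highest in stem cells, TA and goblet progenitors, Cldn4 in EEC, and Paneth cells and IEL are low for most members on this scale.

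All 10 members differed among the 9 epithelial types, with adjusted p between 3.60e-17 for Cldn4 and 0.0186 for Ocln (edgeR quasi-likelihood F test, Benjamini-Hochberg over 11013 genes). The same test called 77.3% of all genes, so that a call by itself was usual. Because the types were named from the expression of these cells, p-values describe how far the annotated types stood apart, with 2 mice behind each. Intervals cover counting error only, and because captured RNA per cell and its scaling differ between types, levels are relative to the other RNA of the same cells.

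The channel-forming claudins are described first, which is not an order of the test. Cldn2, whose protein forms a pore for cations and water, measured 67.3 CPM in mouse 1 and 63.0 CPM in mouse 2 in stem cells. It stood at 47.0 and 58.9 CPM in TA and at 37.0 and 60.0 CPM in goblet progenitors. The ranges of the mice overlapped between TA and goblet progenitors, and both stem cell values lay above all 4 of theirs. Enterocytes held 11.4 and 20.8 CPM, secretory progenitors 15.2 and 13.4 CPM, and tuft cells 4.84 and 8.93 CPM, the last on 2 and 5 UMIs. Goblet cells held 2.64 and 3.58 CPM. No UMI was seen in IEL, which allows up to 11.4 and 13.3 CPM (3 UMIs of each sum).

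Against the mean of the other 8 types, Cldn2 was higher in stem cells by 1.78 ± 0.21 (log2 ± SE, adjusted p = 4.86e-07), in TA by 1.29 ± 0.19 (adjusted p = 4.43e-06) and in goblet progenitors by 1.10 ± 0.21 (adjusted p = 0.000490). It was lower in goblet cells, at a log2 fold change of -2.75 ± 0.37, and in tuft cells, at -2.07 ± 0.53. With IEL in the fit both of these calls were lost, and the one in tuft cells also without TMM scaling (-1.45, adjusted p = 0.0626) and with thinned cells (-2.26, adjusted p = 0.0582). The EEC of the mice disagreed, with 41.9 CPM on 26 UMIs in mouse 1 and 9.28 CPM on 2 UMIs in mouse 2, and no call was made there. After each cell was thinned to 5000 UMIs, a Cldn2 UMI was found in 25.3% ± 0.453 (mean ± SD, n = 2 mice) of stem cells, 21.6% ± 3.16 of TA and 0.725% of goblet cells in both mice.

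Cldn15, the other cation pore and a partner of Cldn2 in sodium recycling in the gut, had a different order. It was highest in enterocytes at 412 and 313 CPM, followed by goblet cells at 350 and 307 CPM and goblet progenitors at 321 and 308 CPM. The mice's ranges overlapped among these 3 types. TA held 312 and 217 CPM, secretory progenitors 298 and 187 CPM, and stem cells 243 and 198 CPM. Tuft cells held 123 and 83.9 CPM and EEC 137 and 41.8 CPM, the latter on 85 and 9 UMIs. Cldn15 was higher than the mean of the other types in enterocytes by 1.13 ± 0.12 (log2 ± SE) and in goblet cells by 1.09 ± 0.13. It was lower in EEC, at -1.61 ± 0.20, and in tuft cells, at -1.48 ± 0.19. The EEC value was -3.37 with thinned cells, and the 85 UMIs of mouse 1 lay in 18.5% of its 54 EEC. It was -1.32 within mouse 1 and -2.57 within mouse 2. Values within 1 mouse are differences of log2 TMM-scaled CPM and do not come from a new fit. On the CPM scale the mice also differed in Cldn15 outside EEC. Mouse 1 exceeded mouse 2 in all 9 epithelial types.

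Cldn3, which tightens junctions, was highest in goblet cells at 1089.5 and 820 CPM, above both values of every other type. Tuft cells at 769 and 748 CPM and enterocytes at 716 and 679 CPM followed, and EEC were low among the non-Paneth epithelial types at 406 and 246 CPM. After TMM scaling the order of these 2 turned, with enterocytes at 708 and 632 CPM and tuft cells at 507 and 527 CPM. Cldn3 was 1.26 ± 0.10 higher in goblet cells (log2 ± SE, adjusted p = 1.90e-11) and 0.66 ± 0.11 higher in enterocytes, and -1.19 ± 0.14 in EEC. Tuft cells, at 0.25 ± 0.12, were not called (adjusted p = 0.174). Cldn7, which takes part in junctions and in adhesion along the sides of the cell, was flatter: outside Paneth cells its epithelial levels ran from 540 CPM in the secretory progenitors of mouse 2 to 1118 CPM in the enterocytes of mouse 2. Thinned to 5000 UMIs, at least 1 Cldn7 UMI was found in 88.0% or more of the cells of each epithelial type other than Paneth cells in each mouse. The background in IEL was 27.3% of 11 thinned cells in mouse 1 and 0 of 18 in mouse 2, which allows up to 18.5%, with raw median depths of 4108 and 10203 UMIs.

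On the CPM scale Cldn4 was high in a single type. In EEC it measured 156 CPM (95% interval 127 to 191, 97 UMIs) in mouse 1 and 274 CPM (209 to 353, 59 UMIs) in mouse 2. No other type in either mouse exceeded the 14.0 CPM of mouse 1 goblet cells. Thinned to 5000 UMIs, 58.5% of 53 EEC and 55.0% of 20 EEC held a Cldn4 UMI, against 0.108% and 0.785% of enterocytes and 0 of 320 and 0 of 323 TA, which allows up to 1.15% and 1.14% (exact binomial 95% bound). Enterocytes gave 2 and 5 UMIs of Cldn4 from 19366535 and 5348340, and stem cells 3 and 5. Cldn4 was higher in EEC than in the mean of the other 8 types by 5.68 ± 0.28 (log2 ± SE, adjusted p = 3.17e-16). This difference lay between 5.23 and 6.38 (log2) under 9 other ways of fitting, and was 4.86 within mouse 1 and 5.62 within mouse 2. The EEC of mouse 2 also held IEL markers at 427 CPM, against 3.22 CPM in mouse 1, while Cldn4 itself had no UMI in the IEL of either mouse.

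Cldn4 was also called in goblet cells, where it was 1.95 ± 0.32 higher (14.0 and 11.2 CPM on 53 and 25 UMIs), and in Paneth cells, where it was 4.49 ± 0.35 higher. After TMM scaling Paneth cells held 71.3 and 56.8 CPM of Cldn4 and EEC 99.2 and 189 CPM. Within mouse 1 the log2 differences were 1.75 in goblet cells and 4.33 in Paneth cells, and within mouse 2 they were 1.18 and 3.68. All of these lay below the values of the fit, and they come from scaled levels and not from a new fit. Cldn4 was called lower in enterocytes and TA, where the fold change rests on 7 and 4 UMIs over both mice. Both calls were lost with IEL in the fit, that in enterocytes also when cells were thinned. Cldn23, a claudin of more differentiated epithelium, peaked in enterocytes at 48.6 and 30.7 CPM, followed by goblet cells at 27.0 and 12.1 CPM. Both enterocyte values lay above all goblet values. It was 2.44 ± 0.20 higher in enterocytes (log2 ± SE, adjusted p = 3.08e-12) and 1.397 ± 0.257 higher in goblet cells. Tuft cells gave 0 and 2 UMIs and Paneth cells 5 and 0.

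Among the other membrane proteins, Ocln (occludin) had narrow differences. Its epithelial levels outside Paneth cells ran from 42.9 CPM in the tuft cells of mouse 2 to 97.5 CPM in the EEC of mouse 2, and only enterocytes were called, at 0.44 ± 0.16 higher. That call was not made by DESeq2, with a stricter cell filter or without the mouse term. F11r, which encodes junctional adhesion molecule A, was highest on the CPM scale in tuft cells, at 29.0 CPM in mouse 1 (12 UMIs) and 111 CPM in mouse 2 (62 UMIs). It was lowest outside Paneth cells in stem cells, at 7.85 and 28.1 CPM. After TMM scaling enterocytes stood above tuft cells in mouse 1, at 24.8 against 19.1 CPM, and below them in mouse 2, at 63.2 against 78.0 CPM. On the CPM scale the mice differed more than most types did: the enterocytes of mouse 1 at 25.1 CPM lay below the stem cells of mouse 2. With the mouse term in the fit, tuft cells were 0.98 ± 0.22 higher and enterocytes 0.87 ± 0.14 higher (log2 ± SE). Stem cells were at -0.999 ± 0.217 against the other types. With the mouse term left out of the fit, the 5 calls of F11r, that between enterocytes and stem cells included, were lost, with adjusted p from 0.202 to 0.737. The call in tuft cells was also lost with thinned cells (adjusted p = 0.131) and that in stem cells with IEL in the fit (adjusted p = 0.231).

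The scaffold genes were broad. Tjp1 encodes the zonula occludens protein that links claudins and actin, and had its highest mean in enterocytes, at 36.8 and 42.6 CPM, where it was 1.10 ± 0.17 higher (log2 ± SE, adjusted p = 1.76e-06). TA held 41.6 and 22.9 CPM and stem cells 25.8 and 14.3 CPM. Tjp3 encodes a related scaffold and was at 101 and 101 CPM in TA, 111 and 98.2 CPM in tuft cells, 88.0 and 93.5 CPM in stem cells and 77.7 and 97.4 CPM in enterocytes. On the CPM scale both TA values lay within the range of tuft cells and both stem cell values within that of enterocytes. The first pair lay above the second on that scale only. After TMM scaling enterocytes held 76.8 and 90.8 CPM, TA 70.2 and 76.0 CPM and tuft cells 73.3 and 69.2 CPM. Tjp3 was called higher in enterocytes by 0.65 ± 0.13 (adjusted p = 6.98e-05), in TA by 0.43 ± 0.13 and in stem cells by 0.41 ± 0.15. The call in stem cells was lost without the filter on low counts, without Paneth cells and without sums of under 30 cells. Without the mouse term that call and the one in TA were lost. Tuft cells, at 0.39 ± 0.18, were not called (adjusted p = 0.168). EEC held 48.3 and 27.9 CPM of Tjp3, a log2 fold change of -1.12 ± 0.24 against the other 8 types. That call was lost without TMM scaling (-0.44, adjusted p = 0.200) and with IEL in the fit (-0.79, adjusted p = 0.0553).

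**Figure D2:**
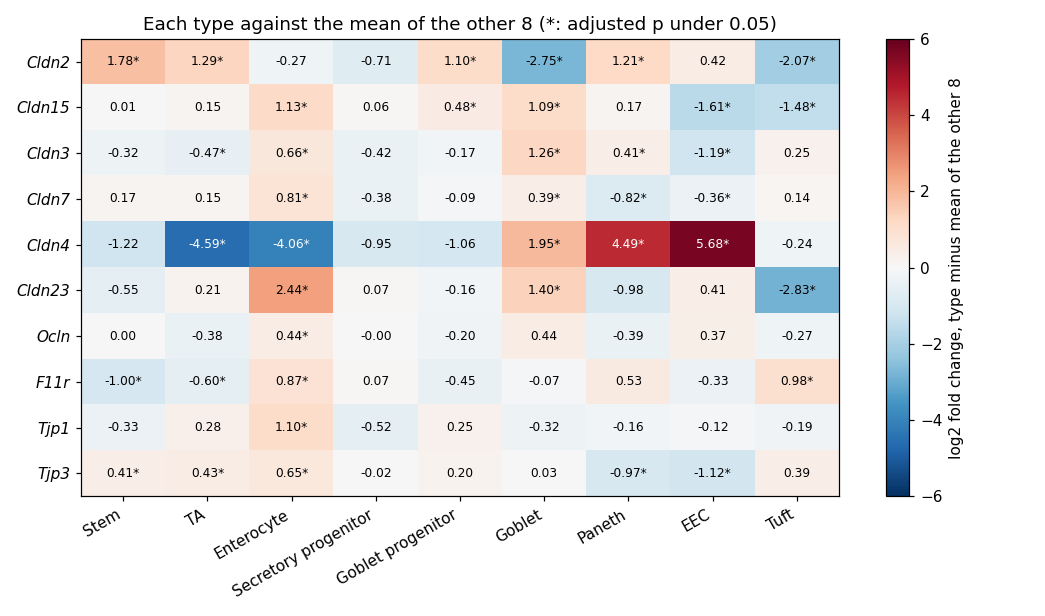
Log2 fold change of each member (rows) in each epithelial type (columns) against the mean of the other 8 types, from the fit on 18 sums, with an asterisk where the adjusted p is under 0.05. Cldn4 in EEC (5.68) is the highest value, enterocytes have 8 members marked as higher, and secretory progenitors have none marked.

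Counted by type, enterocytes had 8 members higher and 1 lower, with 54.5% of all genes called in that contrast, and the members' median log2 fold change was 0.73 against 0.03 over all genes. Goblet cells had 5 higher and 1 lower (29.2% of all genes called), goblet progenitors 2 higher (12.1%) and tuft cells 1 higher and 3 lower (16.0%). Stem cells had 2 higher and 1 lower (25.6%), TA 2 higher and 3 lower (32.8%), and EEC 1 higher and 4 lower (21.6%). Secretory progenitors, with 31 and 19 cells, had 0 members called by edgeR (4.78% of all genes), 0 by DESeq2 and 2 at an unadjusted p under 0.05. In that type 1 member was called higher without TMM scaling, and 1 lower with Paneth cells left out. Cldn7 in EEC (-0.36) and Cldn3 in TA (-0.47) turned to 0.32 and 0.05 without TMM scaling. Leaving out the sums of under 30 cells, an alternative added after the values were seen, gave 37 calls over all types against 39. Of those 39 calls of a member in a type, 18 were kept under every alternative fit run on them.

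Paneth cells depended on the scale. On the CPM scale they had the lowest mean of the 9 epithelial types for 8 members, Cldn2 and Cldn4 apart, with Cldn7 at 61.7 and 42.6 CPM and Cldn3 at 90.2 and 68.5 CPM. In these cells 10 genes took 82.6% and 81.9% of all UMIs, and the fit multiplied the Paneth totals by 0.156 and 0.121 to scale for this. After that scaling 3 members were called higher, Cldn4 by 4.49, Cldn2 by 1.21 and Cldn3 by 0.41 on the log2 scale, and 2 lower, Cldn7 at -0.82 and Tjp3 at -0.97, with 27.0% of all genes called. Without it Cldn2 turned to -2.01 and Cldn3 to -2.82, 9 members were called lower, and the median of all genes moved from -0.04 to -3.20. Cldn4 was called higher both ways, by 1.29 without the scaling.

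The absorptive line was then compared at its ends, enterocytes against the stem cells of the crypt. In all, 6 members were higher in enterocytes, where 27.8% of all genes were called higher, and 2 were lower, where 23.5% were; 51.3% of genes were called in all. The members' median log2 fold change was 0.72 and that of all genes 0.06. Cldn23 had the largest rise at 2.67 ± 0.32 (log2 ± SE, adjusted p = 3.45e-08), followed by F11r at 1.66 ± 0.23, Tjp1 at 1.27 ± 0.26, Cldn15 at 0.99 ± 0.18, Cldn3 at 0.87 ± 0.16 and Cldn7 at 0.57 ± 0.15. Cldn2 fell by 1.83 on the log2 scale (SE 0.25, adjusted p = 5.67e-07). Cldn4 was called lower at -2.53 ± 0.88, on 7 UMIs in enterocytes and 8 in stem cells, stood at -1.54 within mouse 1 and -1.16 within mouse 2, and lost its call when cells were thinned (adjusted p = 0.277) and under the stricter cell filter (adjusted p = 0.187). Ocln at 0.39 ± 0.22 and Tjp3 at 0.21 ± 0.18 did not pass the test.

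Within each mouse, the signs of all 10 were the same in both. These values come from scaled log2 levels and not from a new fit, so for genes on few UMIs, as Cldn4 above, both can be smaller than that of the fit. Cldn23 stood at 2.91 in mouse 1 and 2.11 in mouse 2, Cldn2 at -2.13 and -1.41, and Tjp1 at 0.88 and 1.70. Of the 8 calls, 5, those of Cldn2, Cldn3, Cldn15, Cldn23 and Tjp1, were kept under all 9 alternatives. Cldn7 lost its call without TMM scaling (0.30, adjusted p = 0.167), without the mouse term and with IEL in the fit. Without TMM scaling the median of all genes moved to -0.22, and the calls over all genes went from 3064 higher and 2586 lower to 2177 higher and 3384 lower, with 5 members higher and 2 lower.

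**Figure D3:**
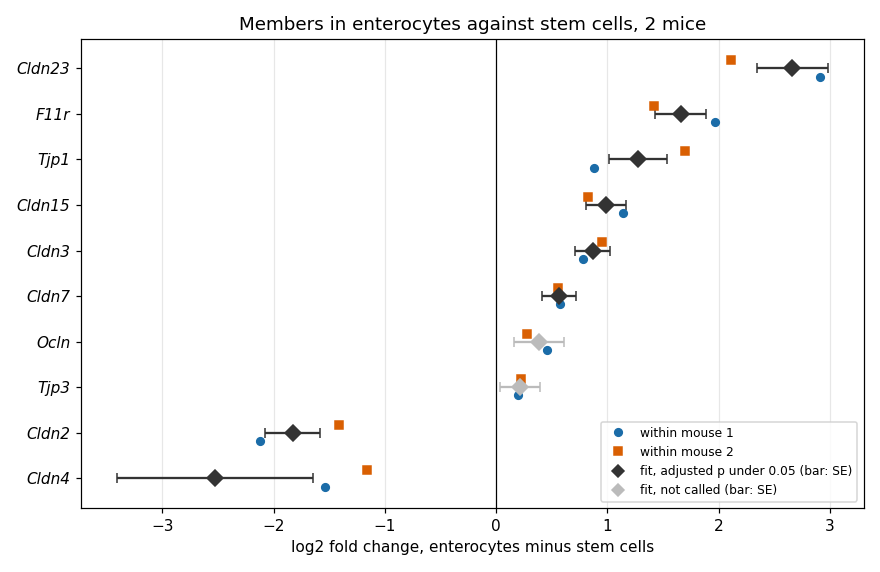
Log2 fold change of the 10 members in enterocytes minus stem cells, with diamonds for the fit over both mice (bars, SE; grey, not called) and circles and squares for the values within mouse 1 and mouse 2. Cldn23 is the highest at 2.67, Cldn2 and Cldn4 are below 0, and the 2 mice agree in sign for every member.

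The annotation also split enterocytes into 5 clusters and TA into 4, which are described here without a test because the clusters were drawn from these same cells. Cldn2 was at 26.3 and 40.6 CPM in enterocyte cluster 2, 17.1 and 32.7 CPM in cluster 9, 16.0 and 12.4 CPM in cluster 6, 5.84 and 4.77 CPM in cluster 3 and 1.02 and 1.13 CPM in cluster 1. Fabp1, a fatty acid binding protein of absorptive cells, had the opposite order over these 5 clusters in both mice, from 1117 and 443 CPM in cluster 2 to 39426 and 31536 CPM in cluster 1. The cluster lowest in Fabp1 was thus the highest in Cldn2, and the one highest in Fabp1 the lowest. Among the TA clusters, cluster 13 held the most Cldn2, at 82.7 and 89.9 CPM, above the stem cells. That cluster also held Lgr5, a marker of crypt stem cells, at 43.2 and 41.2 CPM, against 54.9 and 28.1 CPM in stem cells and at most 3.27 CPM in the other TA clusters.

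The remaining claudins were arranged differently over those clusters. Cldn15 was highest in enterocyte cluster 1, at 453 and 402 CPM. Cldn3 was lowest there, at 459 and 482 CPM, and highest in cluster 9, at 855 and 975 CPM, and Cldn7 likewise went from 837 and 966 CPM in cluster 1 to 1382 and 1437 CPM in cluster 9. Cldn23 was at 33.0 and 14.7 CPM in cluster 1, below the 73.9 and 38.4 CPM of cluster 9 and the 60.5 and 42.9 CPM of cluster 3. Tjp3 was at 53.8 and 55.5 CPM in cluster 1 and between 73.6 and 119 CPM in the other enterocyte clusters. Cluster 1 was therefore the lowest enterocyte cluster for Cldn2, Cldn3, Cldn7, Cldn23, Tjp1 and Tjp3 in both mice and the highest for Cldn15.

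**Figure D4:**
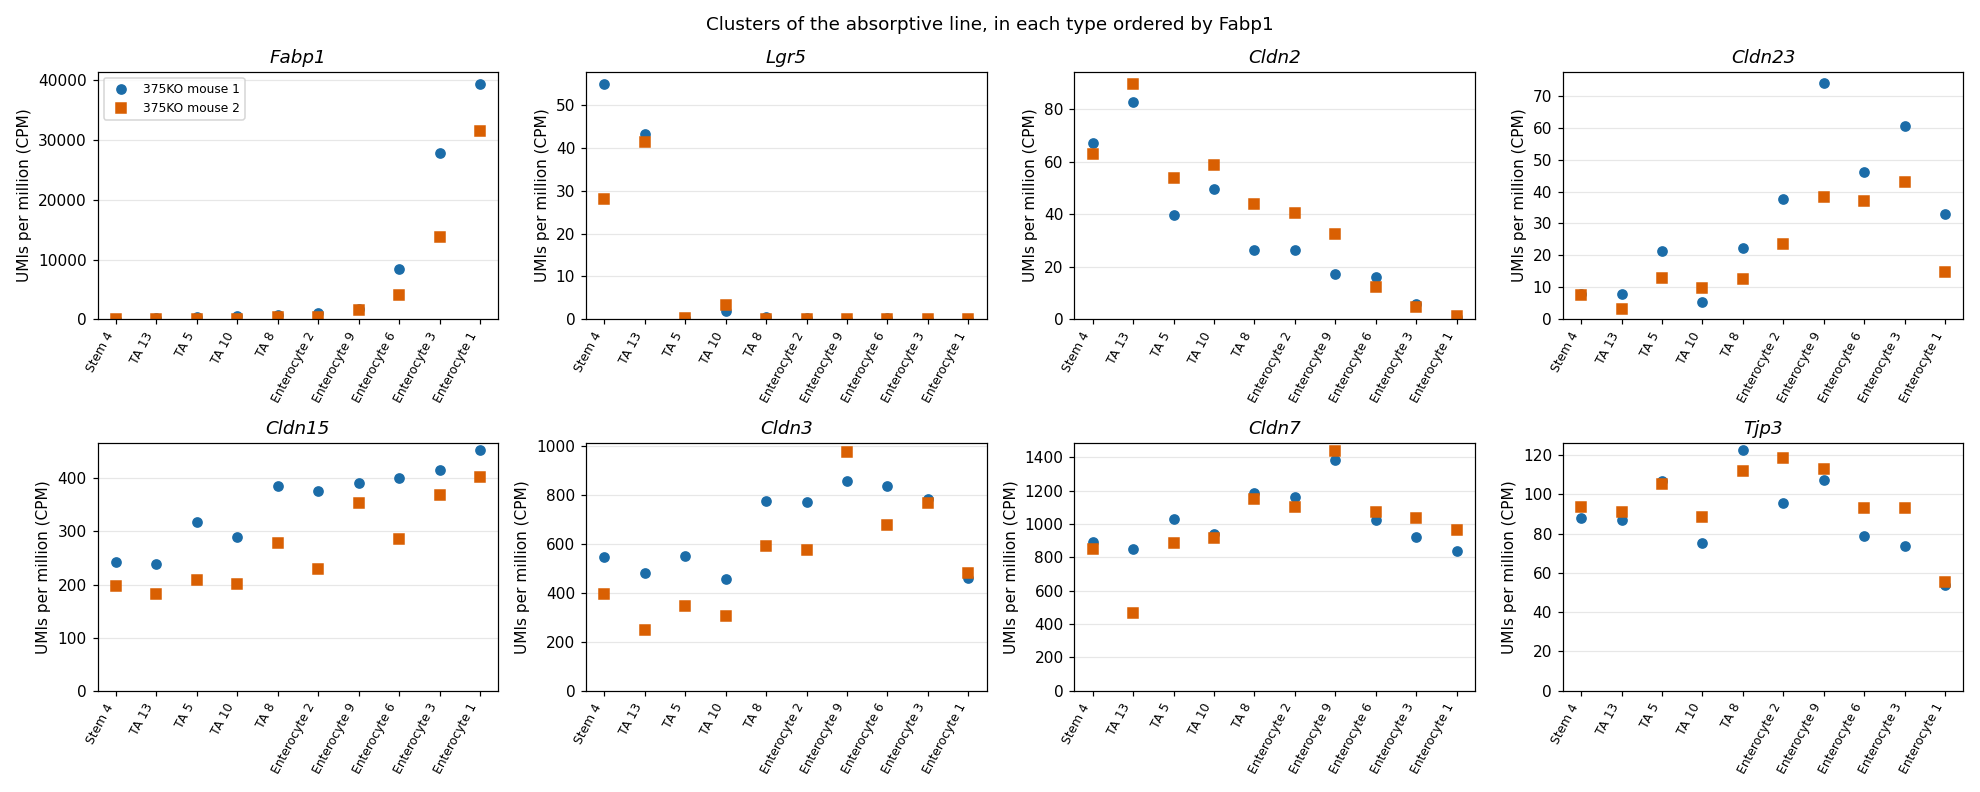
Levels (CPM, vertical axis) of 2 markers and 6 members in the stem, TA and enterocyte clusters, each type's clusters ordered by Fabp1, with circles for mouse 1 and squares for mouse 2. Cldn2 is highest in TA cluster 13, at 82.7 and 89.9 CPM, and lowest in enterocyte cluster 1, at 1.02 and 1.13 CPM. It does not fall at every step between. Cldn15 is highest in enterocyte cluster 1.

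The 2 mice differed in some members whatever the type, which is a description since each mouse is 1 library. F11r was higher in mouse 2 in 9 of 9 epithelial types, with the CPM of mouse 1 between 0.262 and 0.471 of that of mouse 2, and the counting intervals were apart in 6 types. Cldn3 was higher in mouse 1 in 9 of 9 types, with a median ratio of 1.38, and Cldn15 likewise, with a median ratio of 1.43. Tjp3 had a median ratio of 1.002 and Cldn7 one of 1.09. Among the kept cells the share of mitochondrial UMIs also differed, with a median of 10.2% in mouse 1 and 5.55% in mouse 2, and its part in these ratios was not tested.

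**Figure D5:**
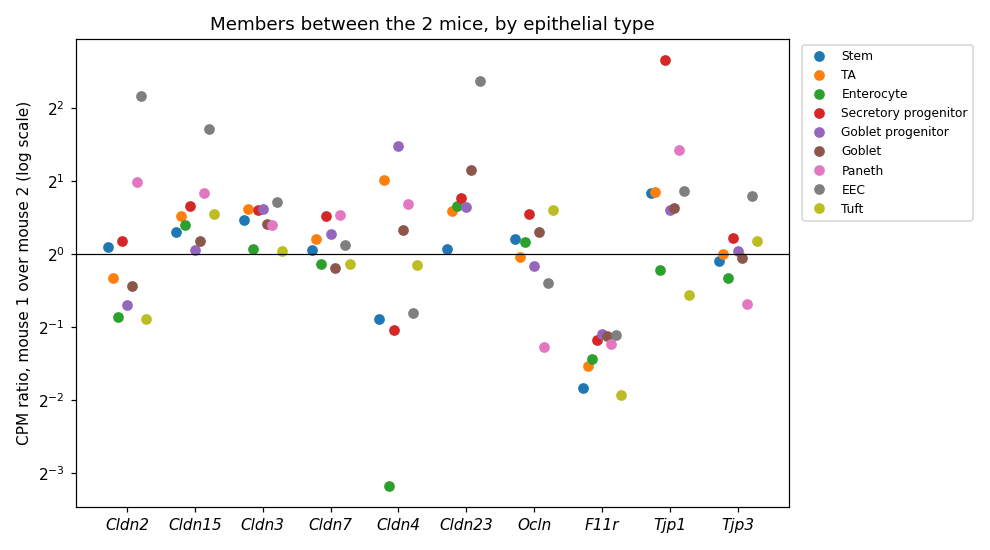
Ratio of the CPM of mouse 1 to that of mouse 2 (vertical axis, log scale) for the members, with 1 point for each epithelial type and no point where a mouse had 0 UMIs. All 9 points of F11r lie below 0.471, and all points of Cldn3 and Cldn15 lie above 1.

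The levels over the 18 sums were also compared between genes by Pearson's r on the log2 TMM-scaled scale, as a description with no test, since the sums share libraries, depth and cell types. Cldn3 and Cldn15 had r = 0.67, Cldn7 and Tjp3 r = 0.70, and Cldn4 and Tjp3 r = -0.88. Over all genes tested, the pattern most like that of Cldn2 was Kpnb1 (r = 0.83), then Slc20a2 (0.83) and Cdv3 (0.82). Cldn4 was most like Itm2c (0.94), Dnajc12 (0.92) and Nbeal2 (0.90), and Cldn7 most like Tspan15 (0.96), Ckmt1 (0.92) and Efnb1 (0.91). The closest gene was BC030870 (0.95) for Cldn15, Chmp3 (0.90) for Cldn3, Agpat9 (0.89) for Cldn23, Slc35d1 (0.90) for Tjp1, Mrps18c (0.94) for Tjp3, Ssfa2 (0.87) for Ocln and Rnf5 (0.91) for F11r.

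Of 46 further genes of the tight junction, 45 were in the matrices and 23 had counts enough to be tested. Between enterocytes and stem cells 10 were higher, 2 were lower and 11 were not called, with a median log2 fold change of 0.42 against 0.06 over all genes. Of all genes 27.8% were higher and 23.5% lower in this comparison. The highest were Inadl, the scaffold also called PATJ, at 1.69 ± 0.28 (log2 ± SE), with 13.5 and 15.0 CPM in stem cells and 39.6 and 35.5 CPM in enterocytes, Igsf5, a junctional adhesion molecule, at 1.60 ± 0.23, Mpp5, a polarity scaffold also called PALS1, at 1.39 ± 0.31, and Cldnd1 at 1.23 ± 0.19. The lower ones were Esam, an adhesion molecule best known from endothelium, at -5.62 ± 0.92, with 8 and 6 UMIs in stem cells and 1 and 0 in enterocytes, and Ybx3, a DNA and RNA binding protein found at junctions, at -0.73 ± 0.19.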

How the data were processed

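Jejunal crypt cells of 2 375KO mice were profiled by 10x single cell RNA-seq. According to the methods and labels, the authors aligned with Cell Ranger 3.0.1 to mm10, used SoupX, kept cells with at least 1500 genes and at most 25% mitochondrial reads, removed doublets called by scDblFinder, and clustered in Seurat (3.2.1 in the submitters' processing notes). The authors deposited UMI counts per gene and barcode for each library, a count table of the whole study and a cell annotation. Annotated cells were joined to the matrices by barcode, and the totals of 3275 of 3275 cells in the count table matched the annotation. The 2937 cell columns of other mice were not used. Of the matrix entries, 2.04% and 4.045% were listed at 0. No doublet caller was run here, and which file SoupX had changed is not given in the sources used here.

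Counts were summed per mouse and type, filtered by filterByExpr, scaled by TMM and tested by the edgeR 4.0.16 quasi-likelihood test with type and mouse terms over 18 sums and 11013 genes, two-sided, Benjamini-Hochberg threshold 0.05 (residual df 8). The mouse term pairs sums of the same animal. The script recovered most large changes planted in well-counted genes of simulated counts. The simulation gave all genes the same spread and held no mouse effect or other type differences. It therefore does not gauge the test for genes on few UMIs or under such differences. Intervals are exact Poisson or binomial at 95%, 0 UMIs were given a floor of 3 counts, and shares of cells were computed after thinning to 5000 UMIs. Annotation was GENCODE (GRCm38). All 10 members are described. For other lists at most 4 called genes per direction were named, and by likeness at most 3 genes per member. The members, lists and tests were chosen with earlier results of these data known. Alternatives were DESeq2 1.42.0, no TMM, no filter, no mouse term, thinned cells, cells with at least 2000 genes and at most 10% mitochondrial UMIs, no Paneth cells, IEL included, and each mouse left out. For a mouse left out, and for values within 1 mouse, log2 differences of TMM-scaled CPM with a prior count of 2 were taken, with no new fit. Leaving out sums of fewer than 30 cells was chosen after seeing the data.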

Additional observations from a re-analysis of the deposited data

How the results depend on the processing

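The counts of members called stayed within 1.5 times the main ones under all alternatives run. With no replicate block, that is without the term that pairs sums of the same mouse, 7 members differed among types, 26 of 39 member and type pairs and 6 of 8 members between enterocytes and stem cells were called, and over all genes 3309 differed between enterocytes and stem cells and 13149 pairs of gene and type were called, against 5650 and 24623. Pairs over all genes numbered 44440 without TMM scaling and 14729 with thinned cells. Directions turned as follows, with the cause not tested. Between enterocytes and stem cells, Tjp3 was -0.0599 without TMM and -0.10 with thinned cells. Cldn7 in EEC was 0.32 without TMM and 0.10 with IEL included, and Cldn3 in TA 0.0496 and 0.0565. In Paneth cells without TMM, Cldn2 was -2.01 and Cldn3 -2.82, and with thinned cells Cldn3 was -0.49 and Tjp3 0.0157. With the stricter cell filter the mean enterocyte level was 23.0 CPM for Cldn2, 752 for Cldn3, 1163 for Cldn7 and 46.6 for Tjp1. With all annotated cells these means were 16.1, 697, 1068 and 39.7 CPM. The filter kept 148 of 931 enterocytes in mouse 1 and 307 of 382 in mouse 2. Under it Cldn2 was at -1.32 (log2) in enterocytes against stem cells, compared with -1.83 in the main fit, and was still called. Without thinning, the mean share of enterocytes with a UMI was 18.1% for Cldn2, 99.1% for Cldn3, 100% for Cldn7, 97.9% for Cldn15, 42.3% for Cldn23, 44.2% for Tjp1, 70.0% for Tjp3, 58.3% for Ocln and 46.4% for F11r, which follows from the deeper cells. Leaving out a mouse gives a value with no test, a difference of log2 TMM-scaled CPM within the other mouse and not a new fit. Among the 39 called pairs of member and type it turned the sign of 0. Without mouse 1, 14 values lay further from the fit than the SD of the 2 mice, and without mouse 2, 10 did. The change of method is part of these distances, and the share of the mouse left out was not separated. Among pairs that were not called, signs differed between the mice in some, as for Cldn2 in EEC (0.82 in mouse 1 and -1.49 in mouse 2). The smallest sums held 19 to 20 cells in secretory progenitors and EEC of mouse 2.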

Other observations

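The belt of adherens junctions and the desmosomes, which lie below the tight junction and hold neighbouring cells together, was higher in enterocytes than in stem cells for 11 of 18 tested genes and lower for 0, with 7 not called and a median log2 fold change of 0.59. At an unadjusted p under 0.05 0 were lower, and DESeq2 called 0 lower. Evpl, which encodes a plaque protein of desmosomes, was 2.82 ± 0.53 higher (log2 ± SE). It stood at 2.80 and 0.623 CPM in stem cells, on only 5 and 1 UMIs, and at 9.86 and 11.2 CPM in enterocytes. Cdh17, a cadherin of intestinal epithelium, was 2.03 ± 0.16 higher, with 201 and 144 CPM in stem cells and 647 and 512 CPM in enterocytes. Ctnna1, the alpha catenin that links cadherins to actin, was 1.08 ± 0.16 higher. As with the members, 27.8% of all genes were called higher in this comparison.

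Of 6 genes known to stabilise or cleave claudins at the membrane, 5 were tested. Spint1, an inhibitor of the membrane protease matriptase, was 1.69 ± 0.27 higher in enterocytes than in stem cells, and St14, which encodes matriptase, 0.69 ± 0.22 higher. Prss8, the protease prostasin, was called lower at -0.77 ± 0.25. Epcam, the adhesion molecule that binds Cldn7, stood at 0.33 ± 0.16 (adjusted p = 0.0911, edgeR) and Spint2 at 0.20 ± 0.16, and neither was called.

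Tuft cells had the highest level of some genes of the further tight junction list. Cldn14 had 24 and 21 of its 25 and 22 UMIs in tuft cells of mouse 1 and mouse 2. Ildr1, a protein of the corners where 3 cells meet, was at 84.6 and 80.4 CPM in tuft cells, 32.2 and 23.2 CPM in EEC and 1.68 and 1.87 CPM in stem cells. These genes were picked out after their values were seen, and no test is given.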
